A study of Homo sapiens with 9 samples.

Results

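The genes described here encode the proteins of the cytosolic ribosome. They were taken by symbol, as RPL or RPS followed by a digit plus RPLP1, RPLP2 and FAU, leaving out the S6 kinases, pseudogenes and antisense transcripts. A gene entered only through array probe sets that name 1 gene, which gave 62 genes of 19775 measured, read by 123 of 54613 probe sets. Of the 62, 39 belong to the large and 23 to the small subunit, and 9 are paralogues, close relatives of a main ribosomal protein encoded by a separate gene. RefSeq lists 88 protein-coding genes that follow the rule, and the other 26 were not analysed here. In addition, 71 probe sets that hold a ribosomal symbol among several genes were not used.

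Transcript levels were compared in HuCCT1 cells, an established human line grown from a bile duct cancer (cholangiocarcinoma). Of 9 arrays, 5 carried RNA of cells transfected with a vector for YAPS127A, a constitutively active form of the Hippo pathway co-activator YAP1, and 4 carried RNA from empty vector transfections. The labels give neither the promoter of the vector, nor the time of harvest, nor whether the transfected cells were a pool or a clone. They number the samples of a group without saying that these were separate cultures, so p-values measure only the spread between the arrays, which may be technical.

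Ribosomal proteins assemble with ribosomal RNA into a small subunit, which decodes the messenger RNA, and a large subunit, which joins amino acids. Their messages are among the most abundant in growing cells, and most begin with a run of pyrimidines at the first base, the terminal oligopyrimidine (TOP) motif, through which mTORC1 controls their translation. A few proteins have paralogues that can take the same place in the ribosome and that vary more between tissues.

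The deposited values are log2 signals on a scale that reaches 14.77 to 14.82 at the brightest probe set of each array. Array medians lay between 5.95 and 5.97. The gap between 3' and 5' actin probe sets, a sign of RNA quality, was 1.58, 0.90, 1.07, 0.89 and 1.02 in YAPS127A, against 0.98, 1.14, 1.69 and 1.18 in empty vector. The largest gaps were those of empty vector replicate 3 and YAPS127A replicate 1, so they fell in both groups. YAP1 itself averaged 12.71 ± 0.07 in YAPS127A (SD, n = 5) and 12.56 ± 0.06 in empty vector (SD, n = 4). This difference of 0.15 ± 0.06 (SE) did not pass the test (limma, Benjamini-Hochberg adjusted p = 0.121), and the sources used here do not say whether the probe set reads the vector's message. The median log2 signal of 10 cholangiocyte markers was 12.90 in YAPS127A and 12.95 in empty vector. It was 5.87 in YAPS127A and 6.02 in empty vector over 8 hepatocyte markers, and 5.33 in YAPS127A and 5.26 in empty vector over 6 fibroblast markers.

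Read by the brightest probe set of each, few ribosomal protein genes differed between YAPS127A and empty vector cells. Of 62, 2 were higher in YAPS127A, none was lower and 60 did not pass the test, which was limma on the log2 values with Benjamini-Hochberg adjustment over all probe sets at 0.05. Of all genes, 14.5% were higher and 14.2% were lower by the same rule. The 2 that rose, RPL22L1 and RPS27L, are both paralogues, of which 22.2% were higher. At an unadjusted p under 0.05 there were 4 higher and 1 lower, beside 19.4% and 19.0% of all genes. Most of these probe sets lie near the top of the signal range, and dimmer probe sets of the same genes gave more calls, as described further on. The brightest of the 9 paralogues, RPL36AL, averaged 13.67, while 45 of 53 main genes reached 14, where no member passed. Whether paralogues differ from main genes of like signal was not tested.

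The median difference of the 62, YAPS127A minus empty vector on the log2 scale, was -0.01, beside 0.00 over all genes. The median size of the difference, whatever its sign, was 0.03 for these genes, or 1.02-fold, and 0.13 over all genes, or 1.10-fold. The 95% confidence interval of the difference lay within 1.2-fold for 57 of the 62. Groups did not overlap in 15 of 62 members, or 24.2%, and in 28.3% of all genes, a count that takes in differences of every size. In a fixed amount of RNA, fewer cells with a message and less of it in each cell cannot be told apart, and a change in the total RNA of a cell would not be seen.

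**Figure D1:**
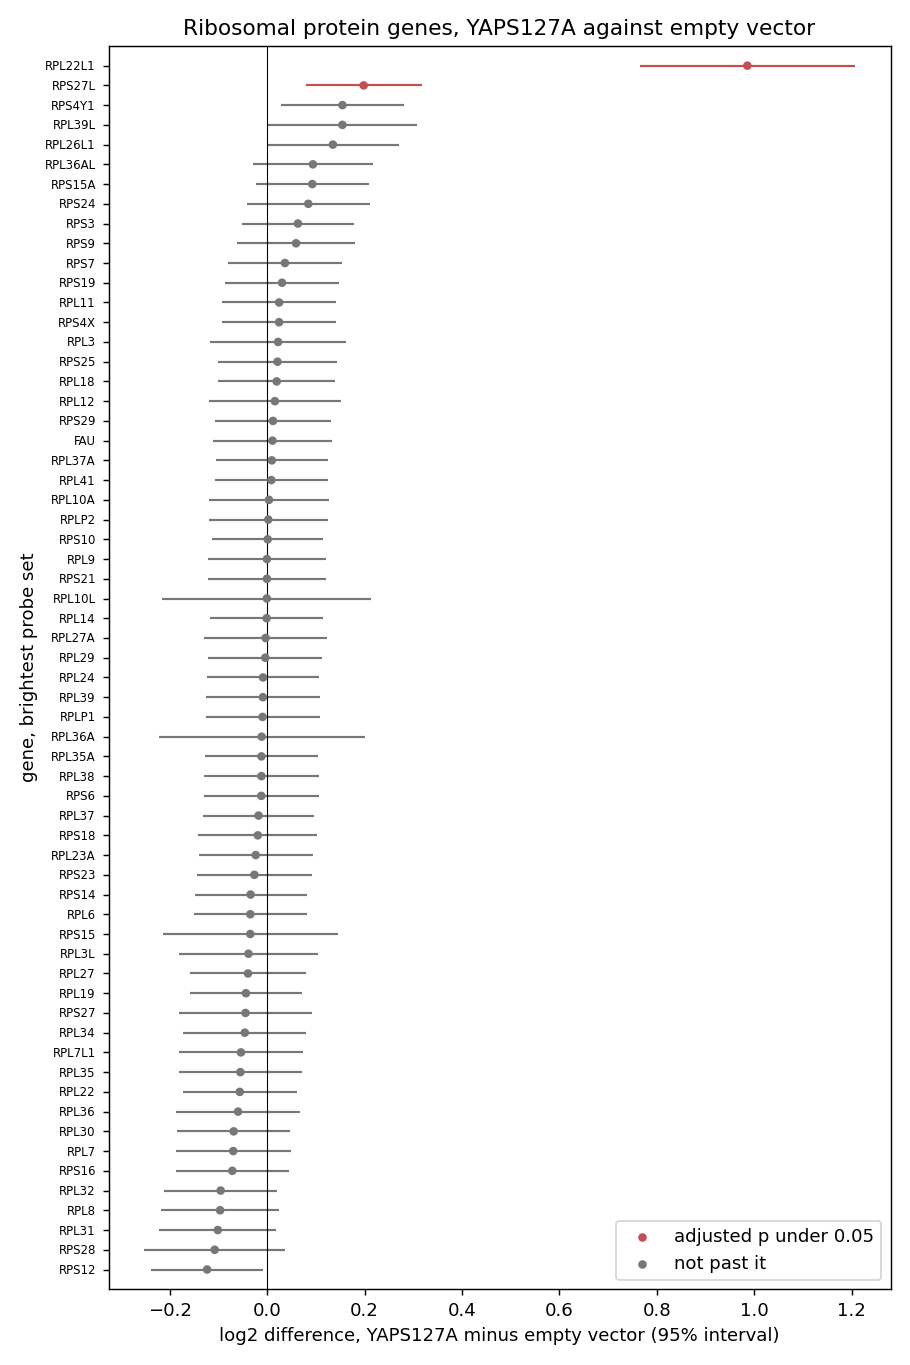
Difference in log2 signal, YAPS127A minus empty vector, for each of the 62 ribosomal protein genes by its brightest probe set, with the 95% confidence interval from limma. RPL22L1 stands alone at 0.99 and RPS27L follows at 0.20, while the other 60 lie between -0.12 and 0.15.

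RPL22L1 had the largest difference. It encodes a paralogue of RPL22 that binds RNA and can take its place in the large subunit. Its log2 signal was 13.17, 12.89, 12.90, 13.05 and 13.09 in YAPS127A, against 11.82, 12.10, 12.30 and 11.93 in empty vector. Every YAPS127A array lay above every empty vector array. The means were 13.02 ± 0.12 in YAPS127A (SD, n = 5) and 12.03 ± 0.21 in empty vector (SD, n = 4). The difference was 0.99 ± 0.10 (SE), or 1.98-fold, with limma's adjusted p = 2.53e-05. It lay between 0.91 and 1.07 over 20 alternative settings and passed in each.

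RPL22 encodes the main protein of that position, also an RNA-binding protein of the large subunit. In mice it is known to hold down the level of the Rpl22l1 message. Its brightest probe set read 14.19, 14.21, 14.23, 14.18 and 14.16 in YAPS127A, against 14.26, 14.23, 14.23 and 14.27 in empty vector. The groups lay next to each other without overlap, and the difference of -0.06 ± 0.05 (SE) did not pass (limma adjusted p = 0.526). RPL22 had 5 probe sets, all with the YAPS127A arrays below the empty vector arrays. The dimmest read 12.73, 12.67, 12.64, 12.72 and 12.69 in YAPS127A, against 13.03, 13.08, 12.98 and 13.02 in empty vector. It alone passed, at -0.34 ± 0.06 (SE) and limma's adjusted p = 8.33e-04. The next dimmest differed by -0.16 (limma adjusted p = 0.0532).

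RPS27L, a paralogue of the small-subunit protein RPS27 and a known target gene of p53, rose less. Its log2 signal was 12.94, 12.92, 12.89, 12.90 and 12.86 in YAPS127A, against 12.70, 12.70, 12.74 and 12.67 in empty vector. The groups did not overlap. The difference was 0.20 ± 0.05 (SE), or 1.15-fold, with limma's adjusted p = 0.0190. Its other probe sets also rose, by 0.23 (limma adjusted p = 0.0101) and by 0.44 (limma adjusted p = 8.49e-04). The call by the brightest probe set was lost without empty vector replicate 4 (adjusted p = 0.0558) and with the shift of the chromosomal neighbours removed (adjusted p = 0.0746).

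RPS27 itself, a zinc-finger protein of the small subunit, read 13.97, 13.84, 13.93, 13.93 and 13.95 in YAPS127A, against values between 13.88 and 14.07 on the empty vector arrays. The groups overlapped, with a difference of -0.04 ± 0.06 (SE; limma adjusted p = 0.685). Whether a paralogue and its main gene differed from each other in response was not tested.

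**Figure D2:**
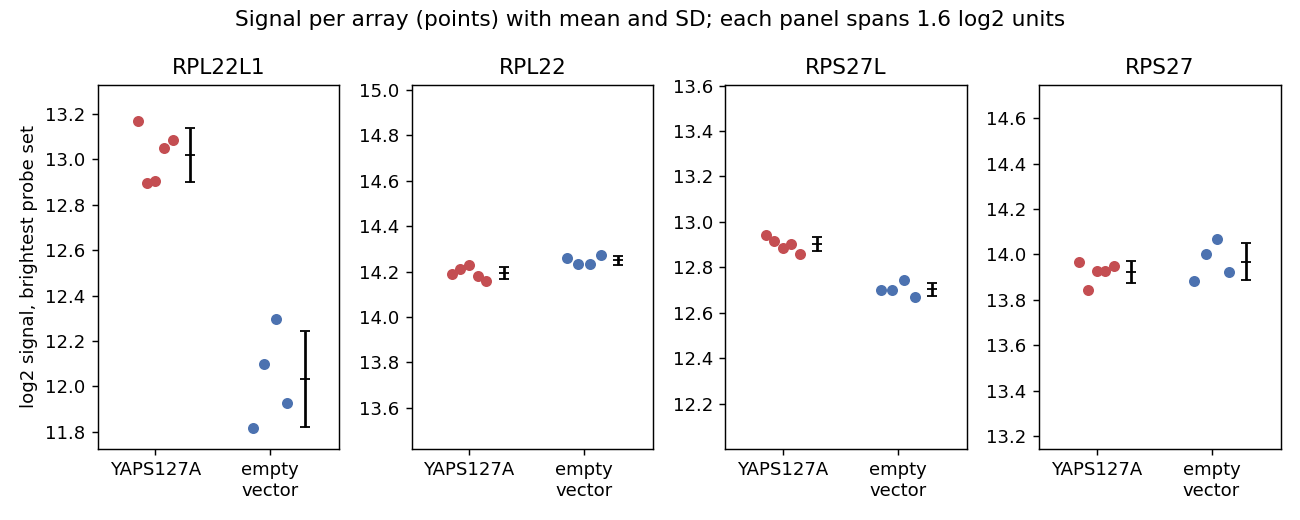
Log2 signal of RPL22L1, RPL22, RPS27L and RPS27 on each array, by the brightest probe set, with YAPS127A at the left and empty vector at the right of each panel. Bars give the mean and SD, each panel has an axis of its own, and the RPL22L1 and RPS27L arrays of the groups do not overlap, while the RPS27 arrays do.

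The bases around the annotated start of transcription are shown for these pairs, for a further paralogue and for 3 main genes, because the TOP motif is the feature that ribosomal protein messages share. Each window spans 15 bases on either side of the start, on the transcribed strand, from RefSeq on GRCh38.p14. Capitals mark a TOP-like run, here a C followed by at least 5 pyrimidines (C or T), lying within 10 bases of the start. A run that reaches further, as in RPS3, was cut off at that distance.
RPL22L1, chr3:170870181-170870210, minus strand: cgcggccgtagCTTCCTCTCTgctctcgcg
RPL22, chr1:6199581-6199610, minus strand: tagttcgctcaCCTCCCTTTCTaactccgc
RPS27L, chr15:63157463-63157492, minus strand: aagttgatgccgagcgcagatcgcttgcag
RPS27, chr1:153990747-153990776, plus strand: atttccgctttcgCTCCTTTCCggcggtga
RPL26L1, chr5:172958714-172958743, plus strand: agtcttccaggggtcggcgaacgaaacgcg
RPS3, chr11:75399503-75399532, plus strand: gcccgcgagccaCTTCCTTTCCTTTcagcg
RPS12, chr6:132814554-132814583, plus strand: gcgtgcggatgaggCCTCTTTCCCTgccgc
RPL31, chr2:101002274-101002303, plus strand: acaatccttcgcgCTCTTCCTTTCCaactt

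RPL22L1, which rose, holds such a run, as do RPL22, RPS27, RPS3, RPS12 and RPL31. RPS27L, which also rose, and RPL26L1, which has 2 annotated starts, hold none in this window. A run was present in 43 of the 54 ribosomal protein genes with a start in the RefSeq table, or 79.6%, and in 22.0% of 15788 other protein-coding genes. Over all 35116 starts in the table the share was 16.7%. Only the given strand was searched. A match is a description of these letters, and its absence says nothing of how the message is translated.

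The other 7 paralogues did not pass the test. The median difference of all 9 was 0.14, beside 0.00 over all genes. RPS4Y1, the Y-linked relative of RPS4X, differed by 0.15 (limma adjusted p = 0.0762). RPL26L1, a relative of RPL26, averaged 12.88 ± 0.06 in YAPS127A and 12.75 ± 0.07 in empty vector (limma adjusted p = 0.151). RPL36AL differed by 0.09 and RPL7L1 by -0.05. Signal was low for RPL39L, RPL3L and RPL10L, paralogues known from testis or muscle. RPL39L averaged 4.18 ± 0.04 in YAPS127A and 4.03 ± 0.13 in empty vector, and RPL3L averaged 4.23 ± 0.07 in YAPS127A and 4.27 ± 0.08 in empty vector. RPL10L averaged 6.87 ± 0.18 in YAPS127A and 6.87 ± 0.13 in empty vector. No member was filtered out for a low signal, and 59 of the 62 lay above 5.96, the median of all probe sets.

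By the brightest probe set, no main gene passed the test. Of 53 main genes, 52 had a mean log2 signal of at least 13, and their median level was 14.34 in YAPS127A and 14.36 in empty vector. The exception was RPL36A, whose only single-gene probe set averaged 4.55 ± 0.20 in YAPS127A and 4.57 ± 0.02 in empty vector. Limma's test called none of the 53, with 1 at an unadjusted p under 0.05, and the differences ran between -0.12 and 0.09. Dimmer probe sets of some of the same genes did pass, with differences of up to 1.24 in RPS29.

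Among the large-subunit proteins, 24 of 32 main genes had a negative difference and 8 a positive one, with a median of -0.01. RPL8, which lies beside the catalytic centre for peptide bonds, read 14.09, 14.12, 14.05, 14.17 and 14.13 in YAPS127A, against 14.22, 14.24, 14.20 and 14.18 in empty vector. The highest YAPS127A array lay just below the lowest empty vector array, and the difference of -0.10 ± 0.06 (SE) did not pass (limma adjusted p = 0.260). RPL31, at the exit of the tunnel for the nascent chain, differed by -0.10 ± 0.05 (SE; limma adjusted p = 0.227). RPL32 also differed by -0.10 ± 0.05 (SE; limma adjusted p = 0.243), while RPL7 and RPL30 each differed by -0.07 and RPL36 by -0.06. RPL11, which binds MDM2 when ribosome assembly fails, differed by 0.02. RPLP1 and RPLP2, the acidic stalk proteins that recruit translation factors, differed by -0.01 and 0.00. Of 5 proteins at the tunnel exit, RPL35, RPL19 and RPL23A differed by -0.05, -0.04 and -0.02.

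Among the small-subunit proteins, 11 of 21 main genes had a positive difference and 10 a negative one, with a median of 0.00. RPS12, a protein of the beak of the subunit, was the lowest. It read 14.33, 14.35, 14.35, 14.34 and 14.35 in YAPS127A, against 14.44, 14.47, 14.50 and 14.45 in empty vector. The groups were narrow and did not overlap, yet the difference of -0.12 ± 0.05 (SE) did not pass (limma adjusted p = 0.120). With limma's variance trend and robust setting the SE of RPS12 was 0.02, and it passed (limma adjusted p = 0.0016).

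RPS3, which lines the entry channel of the messenger RNA, read 14.43, 14.47, 14.48, 14.47 and 14.50 in YAPS127A, against 14.40, 14.41, 14.42 and 14.39 in empty vector. The groups did not overlap, with a difference of 0.06 ± 0.05 (SE; limma adjusted p = 0.462). RPS15A differed by 0.09, RPS24 by 0.08 and RPS9 by 0.06. RPS28 and RPS16, both of the head of the subunit, differed by -0.11 and -0.07. FAU, which encodes a ubiquitin-like protein fused to a small-subunit protein, differed by 0.01. The 14 measured genes mutated in Diamond-Blackfan anaemia, an inherited failure of red cell production, had a median of 0.01, and the 10 measured proteins of the head had one of -0.01.

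The members crowd the top of the signal range, where few genes passed the test. A mean log2 signal of at least 14 was reached by 77 genes, and 45 of these, or 58.4%, were ribosomal protein genes. Of these 77, 2.60% passed the test in either direction, and of the 45 members among them none did, with 1 at an unadjusted p under 0.05. The median size of the difference was 0.02 for the 45 members and 0.03 for the other 32 genes at this level. Of those 32 genes, 2 passed, the protease gene CTSC and the chaperone gene HSP90AA1. CTSC differed by 0.60 ± 0.06 (SE; limma adjusted p = 2.34e-05). It averaged 14.28 in YAPS127A and 13.68 in empty vector, so it lay above 14 only in YAPS127A. HSP90AA1 differed by -0.16 ± 0.05 (SE; limma adjusted p = 0.0457). Over all probe sets the median size was 0.03 at 14 or more, 0.12 between 12 and 14 and 0.22 between 8 and 12. SDs within a group were also narrow for the 45, between 0.01 and 0.13 with a median of 0.03. The SE of their differences was at least 0.05, in a fit that draws variances towards 1 value whatever the signal. With limma's variance trend and robust setting, RPS12, RPL32, RPL31, RPL8 and RPS15A of these 45 passed, as given further on beside the shares of all genes. Whether the scanner or the hybridisation compresses differences at this level was not tested.

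**Figure D3:**
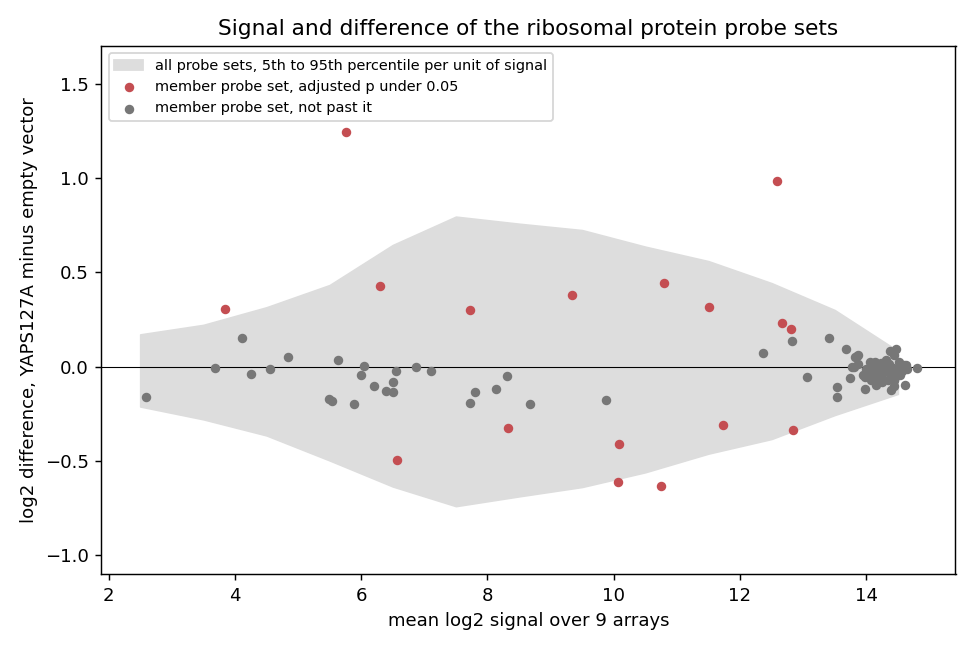
Difference in log2 signal, YAPS127A minus empty vector, against mean log2 signal, with ribosomal protein probe sets drawn as points over a grey band that holds all but the highest and lowest 5% of all probe sets at that level. The brightest points lie in a narrow strip around 0, and the probe sets past the test lie below 14.

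Dimmer probe sets of the same genes gave a more varied picture. Of the 123 probe sets, 10 were higher and 7 lower in YAPS127A by limma's test, beside 11.9% and 12.0% of all probe sets. At a mean of at least 14 none of 62 passed, with 1 at an unadjusted p under 0.05. Between 12 and 14 there were 4 of 23, or 17.4%, beside 31.4% of all probe sets at that level. Between 8 and 12 there were 8 of 12, or 66.7%, beside 43.7%, a bin of few probe sets. Below 8 there were 5 of 26, or 19.2%, beside 16.1%. No gene had probe sets called in opposite directions.

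RPS29, a zinc-binding protein of the head of the small subunit, had a dim probe set that passed while the bright one did not. Its mean signal lay below 5.96, the median of all probe sets, so it is among the 12 member probe sets dropped when dim ones are left out. It read 6.52, 6.69, 6.19, 6.28 and 5.87 in YAPS127A, against 5.24, 5.12, 4.74 and 5.15 in empty vector. The groups did not overlap, and the difference was 1.24 ± 0.16 (SE), with limma's adjusted p = 1.15e-04. Its bright probe set averaged 14.37 ± 0.04 in YAPS127A and 14.36 ± 0.01 in empty vector, a difference of 0.01 (limma adjusted p = 0.915).

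RPS21, also of the small subunit, showed the reverse. Its dim probe set read 10.57, 10.61, 10.45, 10.39 and 10.31 in YAPS127A, against 11.19, 11.21, 11.04 and 10.96 in empty vector. All YAPS127A arrays were lower, with a difference of -0.63 ± 0.08 (SE; limma adjusted p = 1.65e-04), while the bright probe set differed by -4.04e-04.

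RPL31 had dim probe sets at -0.61 ± 0.08 (SE; limma adjusted p = 2.27e-04) and -0.49 ± 0.08 (SE; limma adjusted p = 5.75e-04), beside -0.10 for the bright one. Dim probe sets were also lower for RPL37 (-0.41), RPS16 (-0.32) and RPL35A (-0.31). They were higher for RPS15A (0.32 and 0.43), RPS24 (0.38), RPS6 (0.31), the S6 kinase substrate, and RPS23 (0.30), a protein of the decoding centre. The RPS6 probe set averaged 3.98 ± 0.13 in YAPS127A and 3.67 ± 0.17 in empty vector, also below the median of all probe sets. The calls of RPS16 (limma adjusted p = 0.0588) and RPS6 (limma adjusted p = 0.0647) were lost with the shift of the chromosomal neighbours removed. The sources used here do not give the part of the transcript or the isoform that each probe set reads.

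By the brightest probe set, the differences of the members tended to have the sign of those of their chromosomal neighbours, and all genes also showed a positive correlation. The neighbour shift was the median difference of the 25 nearest genes on either side, or fewer at the ends of the chromosome. Only genes with a mean signal above 5.96, the median of all probe sets, counted as neighbours, and ribosomal protein genes were left out. The measure was chosen with earlier results of these data known. The shift exceeded 0.1 in size for 23 of the 62. Of all 62, 37 had a negative and 25 a positive difference. Of 17 members in regions shifted down, 16 had a negative difference, with a median of -0.06 against a median shift of -0.16. Of 6 members in regions shifted up, 5 had a positive one, with a median of 0.04 against a median shift of 0.21. Such counts were not taken over all genes, so they do not mark a trait of the members. Across the 62 genes Spearman's rho between difference and shift was 0.55 and Pearson's r was 0.25. Across 12189 genes with a mean signal above 5.96 they were 0.47 and 0.38, while 59 of the 62 members lay above it. These are descriptions, since genes of 1 region share their arrays and are not independent.

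RPS12 on chromosome 6 stood at -0.12 among neighbours at -0.46, RPL32 on chromosome 3 at -0.10 among neighbours at -0.41, and RPL8 on chromosome 8 at -0.10 among neighbours at -0.30. The 3 members on chromosome 8, RPL7, RPL8 and RPL30, had a median of -0.07. In the other direction, RPS15A on chromosome 16 stood at 0.09 among neighbours at 0.36, and RPS24 on chromosome 10 at 0.08 among neighbours at 0.31. Their dim probe sets stood at 0.32, 0.43 and 0.38, and these calls were lost once the shift was removed. RPL22L1, RPS29 and RPS21 had neighbours at -0.03, 0.00 and -0.03. What moves the neighbours was not tested.

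**Figure D4:**
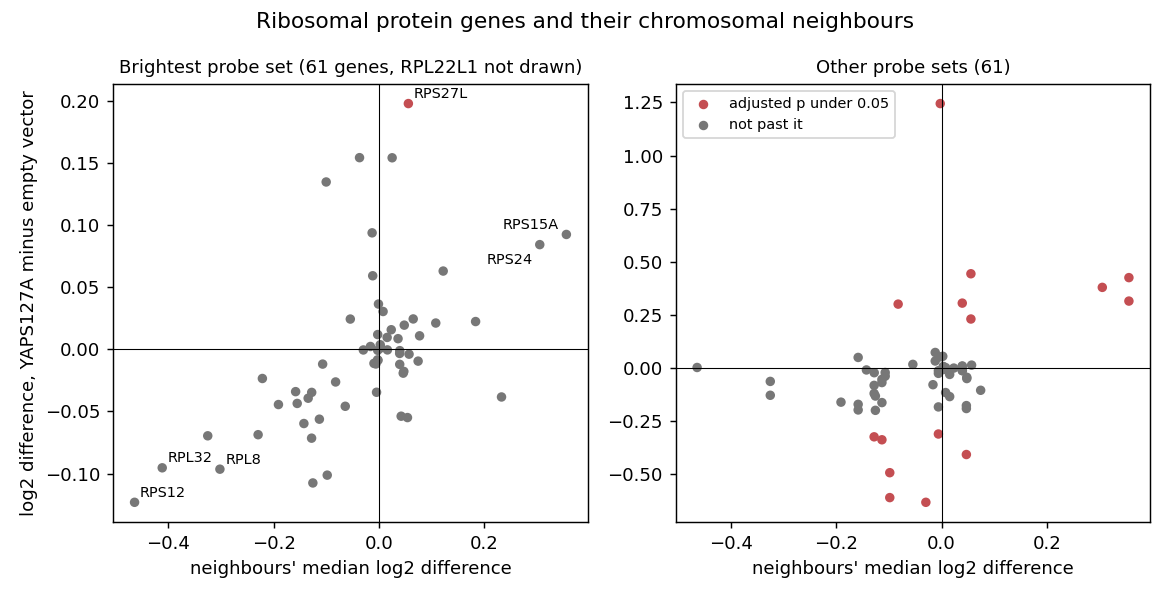
Difference in log2 signal of ribosomal protein genes, YAPS127A minus empty vector, against the median difference of their chromosomal neighbours, for the brightest probe set of 61 genes (left; RPL22L1 not drawn) and for 61 other probe sets (right). Most points at the left with neighbours below -0.1 lie below 0, and the axes of the panels differ.

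The number of members that passed varied with how the test and the probe sets were chosen, and RPL22L1 passed each time. With limma's variance trend and robust setting, 5 members were higher and 4 lower, beside 15.6% and 15.1% of all genes. These were RPL22L1, RPS27L, RPS4Y1, RPL26L1 and RPS15A upward and RPS12, RPL32, RPL31 and RPL8 downward. When the probe sets of a gene were averaged, 6 were higher and 5 lower, beside 16.8% and 16.3% of all genes. That count includes RPS29 at 0.63 upward and RPL31 at -0.40, RPS21 at -0.32 and RPL22 at -0.14 downward.

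When probe sets whose suffix marks possible matches to several transcripts were left out, 37 members stayed, of which 5 were higher and 5 lower, beside 13.8% and 13.2% of 17098 genes. With the neighbour shift removed on each array, 6 were higher and 3 lower, beside 14.9% and 14.8% of all genes. There RPS12, RPL32, RPL7 and RPL23A turned to 0.34, 0.32, 0.25 and 0.21, and RPS15A and RPS24 to -0.27 and -0.22. The subtraction takes off the full shift of the neighbours, which was larger in size than the difference of each of these genes. Why it was larger was not tested.

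Genes that make or use ribosomes were described from lists, chosen with earlier results known. All shares of these lists stand against the 14.5% of all genes that were higher and the 14.2% that were lower. Of 35 translation factors, 2 were higher (5.71%) and 4 lower (11.4%), with a median difference of -0.03. EIF3M, a subunit of an initiation factor, fell by 0.31 (limma adjusted p = 0.0026). EIF2S1, also of an initiation factor, differed by -0.21, the release factor GSPT1 by 0.27 and the elongation factor EEF1A2 by 0.20. The calls of EIF3M and EIF2S1 were lost, and GSPT1 turned to -0.04, with the neighbours' shift removed. With 1 array left out, EIF2S1 was lost without empty vector replicate 2 (limma adjusted p = 0.0542), GSPT1 without empty vector replicate 1 (adjusted p = 0.0607) or 2 (adjusted p = 0.0528), and EEF1A2 without any of YAPS127A replicates 4 and 5 and empty vector replicates 1, 3 and 4 (adjusted p between 0.0536 and 0.0899).

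Of 18 other genes known for TOP messages, VIM alone passed (5.56% higher), at 4.13 ± 0.08 (SE; limma adjusted p = 9.02e-11), and the median was -0.01. VIM encodes vimentin, a filament of mesenchymal cells. PABPC1, the poly(A)-binding protein, differed by -0.17 and EIF2S3 by 0.15, and neither passed (limma adjusted p = 0.0761 and 0.0762).

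Of 34 ribosome biogenesis factors, 3 were higher (8.82%) and 8 lower (23.5%), with a median of -0.09. FBL, the methyltransferase fibrillarin of the nucleolus, fell by 0.47 (limma adjusted p = 3.56e-04), and LTV1, a factor of small-subunit maturation, fell by 0.56 (limma adjusted p = 5.25e-05). NOP16 differed by -0.30, and NOB1, the nuclease that trims small-subunit RNA, by 0.42, but with the neighbours' shift removed LTV1 stood at -0.21, FBL at -0.29 and NOB1 at 0.05, where NOB1 was no longer called. Of 14 genes of RNA polymerase I, which transcribes ribosomal RNA, 2 were higher (14.3%) and 4 lower (28.6%), with a median of -0.09. POLR1B and POLR1E were lower, at -0.35 and -0.30, and POLR1F and POLR1D were higher, at 0.36 and 0.27. POLR1B stood at -0.05 when its probe sets were averaged and at 0.07 without shared probe sets, while POLR1F stood at 0.22 and POLR1D at -0.06 with the neighbours' shift removed.

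Of 21 genes through which MYC and mTORC1 act on ribosome production, 2 were higher (9.52%) and 4 lower (19.0%), with a median of 0.06. MTOR fell by 0.53 and RPS6KB1, the S6 kinase, fell by 0.46, while EEF2K, which slows elongation, rose by 0.59 and EIF4EBP2, a repressor of initiation, rose by 0.40. With the neighbours' shift removed, RPS6KB1 stood at -0.22, EEF2K at 0.24 and EIF4EBP2 at 0.10, where EIF4EBP2 was not called. MYC differed by -0.44 ± 0.17 (SE) with overlapping groups and did not pass (limma adjusted p = 0.0927).

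The 75 mitochondrial ribosomal proteins, whose ribosome is separate, had 9 higher (12.0%) and 8 lower (10.7%), with a median of -0.04. MRPL18 fell by 0.63 (limma adjusted p = 9.72e-06) and MRPS33 rose by 0.65 (limma adjusted p = 3.00e-05). MRPS34 was higher by 0.46 and MRPL57 by 0.41. With the neighbours' shift removed, MRPL18 stood at -0.23, MRPS34 at 0.23 and MRPL57 at 0.10, where MRPL57 was not called. Their median level was 11.96 in YAPS127A and 11.90 in empty vector, below the crowded top of the scale where most cytosolic members lie. Of 6 genes of the p53 response to failed ribosome assembly, none was higher and 2 were lower (33.3%). CDKN1A, a cell cycle inhibitor, fell by 0.61 (limma adjusted p = 2.65e-04) and MDM4 by 0.41 (limma adjusted p = 0.0231). MDM2 differed by -0.08 and CDKN2A by 0.07. The call of MDM4 was lost with the neighbours' shift removed (-0.16) and without any of YAPS127A replicates 1, 4 and 5 and empty vector replicates 1 and 4 (limma adjusted p between 0.0507 and 0.0709).

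Some markers of cell types also differed between the groups, and their part in the differences above was not tested. Of 10 cholangiocyte markers, 1 was higher (KRT8 at 0.30) and 5 lower, among them CFTR at -2.72 and TFF1 at -1.46. Of 8 hepatocyte markers, 1 was higher (CPS1 at 2.09) and 2 lower (SERPINA1 at -0.62 and TAT at -0.18). Of 6 fibroblast markers, 1 was higher (LUM at 1.45) and 1 lower (COL1A1 at -0.70). Beside these counts, 14.5% of all genes were higher and 14.2% were lower, and whether the lists differ from that was not tested.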

How the data were processed

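Total RNA was hybridised to single-colour arrays, per the labels. The deposited table holds log2 signals of probe sets, as judged from their range. The sources used here do not say how the authors normalized and summarised them, and no further scaling was applied. There were 0 columns of other samples. Leaving out 62 control probe sets, 54613 entered the tests. GEO's platform annotation named 1 gene for 41091, several for 1801 and none for 11721, and 41037 were matched to RefSeq (GRCh38.p14) by gene ID. The brightest probe set stood for each of 19775 genes. RPS19BP1, which binds a ribosomal protein, was set aside with 10 kinase genes, 9 pseudogenes and 3 antisense or divergent transcripts.

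Groups (5 YAPS127A, 4 empty vector) were set against each other by lmFit and eBayes of limma 3.58.1 under R 4.3.3, in the main fit without a variance trend. A difference passed at a Benjamini-Hochberg adjusted p, taken over every probe set, of under 0.05. Errors beside a difference are SE and those beside a level are SD. The number of arrays limits the precision. Alternatives were quantile normalization, centring, no dim probe sets, variance trend with robust eBayes, the replicate number as a block, array weights, the mean over probe sets, no shared probe sets, the neighbours' median removed, the actin gap as a covariate, no arrays with the largest gaps, and each array left out. The neighbours were 25 genes on either side, taken among genes above the median signal of all probe sets, with the members left out.

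The members, lists and alternatives were chosen with earlier results of these data known. Named were RPL8 and RPS3, the 10 highest and 10 lowest members, all paralogues, stalk proteins, RPL11 and FAU, and in other lists up to 4 genes with the lowest p. RPL36A, RPS27, MYC, CTSC, HSP90AA1, the set-aside genes of the closing section and the genes whose dimmer probe sets passed were chosen after their values were seen. Start sequences were cut from RefSeq's promoter table. The fit was tested on simulated data. Python 3.11.15 with matplotlib 3.10.9 drew the figures.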

Additional observations from a re-analysis of the deposited data

Results flagged for a closer look

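The acidic stalk protein gene RPLP2 read 14.33 in YAPS127A replicate 5, while the other 4 YAPS127A arrays lay between 14.29 and 14.30. It was singled out because this array stood apart from the rest of its group, whose values were nearly equal. The empty vector arrays of RPLP2 ran more widely, from 14.25 to 14.38. RPLP2 in YAPS127A was 1 of 54 groups of arrays tested over the named members, and chance alone singles out about 1 in 20.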

How the results depend on the processing

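Over 20 alternative settings RPL22L1 kept its direction and its call. The counts of ribosomal protein genes called higher and lower, 2 and 0 as reported, became 5 and 4 with variance trend and robust eBayes (14 probe sets lower instead of 7), 6 and 5 with the mean over probe sets, 5 and 5 without shared probe sets (median difference -0.0262) and 6 and 3 with the neighbours' shift removed. Leaving out 1 array at a time gave 1 to 2 genes higher, the 1 without empty vector replicate 4, and 7 to 10 probe sets higher and 7 to 8 lower. Same-numbered arrays did not deviate together (correlations from -0.25 to 0.04). The sample titles do not say whether the numbers pair the samples, and these correlations cannot settle it. With the replicate block, to which YAPS127A replicate 5 adds nothing, 1 gene and 6 probe sets were higher, beside 11.6% of all genes instead of 14.5%, RPL22L1 kept 0.97 (adjusted p = 0.0023) and RPS27L had 0.21 (adjusted p = 0.0811). Quantile normalization and centring left the 2 and 0. The deposited arrays already had nearly equal medians (5.95 to 5.97) and upper quartiles (8.75 to 8.81), so these settings could change little. With the neighbours' shift removed the sign turned for RPS15A (-0.27), RPS24 (-0.22), RPL7 (0.25), RPL32 (0.32), RPS12 (0.34), RPL23A (0.21), GSPT1 (-0.0373) and POLR1D (-0.0605), since that shift is subtracted by construction. Without shared probe sets it turned for POLR1B (0.0736) and for the TAT difference (0.0427), a hepatocyte enzyme, both then read by another probe set. Over all settings, calls of the 27 named members were lost 3 times, each time of RPS27L, and gained 20 times, and those of 43 named list genes were lost 40 times and gained 8 times. A further 30 sign changes were of differences called in neither fit. At the top of the signal range, where most of these genes lie, 2.60% of genes passed, and whether the scale is compressed there was not tested.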

Other observations

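The genes set aside by the rule include kinases named for the ribosomal protein S6. By the brightest probe set of each, several of these kinases differed more than any main ribosomal protein gene. Most main genes lie at a higher signal, and dimmer probe sets of main genes differed by up to 1.24 (RPS29). Most of these kinases lie at a mean signal between 8 and 12, where 43.7% of all probe sets passed. RPS6KA5, a kinase of histones and CREB, averaged 7.83 ± 0.18 in YAPS127A (SD, n = 5) and 9.39 ± 0.10 in empty vector (SD, n = 4), and it fell by 1.56 without overlap (limma adjusted p = 4.38e-07). RPS6KC1 fell by 0.75 (limma adjusted p = 6.63e-06). RPS6KA1, a kinase of the ERK pathway, averaged 10.31 ± 0.19 in YAPS127A and 9.50 ± 0.16 in empty vector, a rise by 0.81 (limma adjusted p = 1.64e-04). RPS6KA6 was higher by 0.48 (limma adjusted p = 1.22e-04) and RPS6KA4 by 0.22 (limma adjusted p = 0.0116), the second of which was not called with the neighbours' shift removed (0.13, adjusted p = 0.161). RPS6KL1 was higher by 0.57 with overlapping groups (limma adjusted p = 0.0169), and RPS6KB1, given above, was lower. RPS6KA2, RPS6KA3 and RPS6KB2 differed by 0.16, 0.13 and 0.07 and did not pass (limma adjusted p = 0.127, 0.210 and 0.551). RPS19BP1, which encodes a protein that binds RPS19, differed by 0.08 (limma adjusted p = 0.764).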
